A study of Mus musculus with 32 samples.

Results

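The transcripts of the integrins and cadherins were followed while mouse ES (mES) cells were driven towards primitive endoderm (PrE) by GATA6. The genes were chosen by symbol alone, as every *Itga*, *Itgb* and *Cdh* gene with a number or, for *Itga*, a letter after the stem. This gave 49 genes among the 54233 in the table, namely 18 integrin alpha subunits, 8 integrin beta subunits and 23 cadherins. Of the cadherins, 5 were of type I and 13 of type II, which together form the classical cadherins. The other 5 (*Cdh13*, *Cdh16*, *Cdh17*, *Cdh23* and *Cdh26*) share the name but are not classical.

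Integrins are pairs of 1 alpha and 1 beta chain that hold a cell to its matrix. The alpha chain largely sets whether the pair binds laminin, collagen or proteins with an RGD sequence such as fibronectin, and the beta chain connects to actin through talin and kindlin. Classical cadherins join neighbouring cells by binding to the same cadherin on the next cell, and are tied to actin by the catenins. In the blastocyst, E-cadherin joins the cells of the inner cell mass, and the PrE forms an epithelium on a basement membrane of laminin and collagen IV that it secretes itself.

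All 32 samples came from the ES cell line KH2, with C57BL/6 given as the strain and a TRE:GATA6-DSREd2 transgene that Dox switches on. RNA from whole cultures was sequenced at 8 time points (0, 2, 4, 8, 16, 24, 48 and 96 h) with 4 replicates each. Cells at 0 h had no Dox and were kept with LIF in 2i medium, whose inhibitors block MEK and GSK3. Cells at 2, 4 and 8 h were in serum medium with LIF and 1 µg/ml Dox, and cells from 16 h on had 12 h of Dox followed by serum medium without it. Both medium and Dox differed from 0 h at all the other time points, so their effects cannot be told apart. The study states in general that its replicates were run independently, but the labels do not say which of these samples were separate cultures, so p-values measure the spread between these samples.

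Values are normalized counts, the read count of a gene divided by the size factor the authors gave each sample. Each sample had 3190108 to 12301732 reads on genes (median 8870662.5). Replicates 1 and 2 stood apart from replicates 3 and 4. For pairs of samples of 1 time point, chi-square over all genes divided by its degrees of freedom had a median of 1.53 within these sets (16 pairs) and of 10.3 between them (32 pairs). Values of the sets are therefore given where they part. Summed markers of naive ES cells (6 genes) lay between 24080 and 33270 at 0 h and between 834 and 1048 at 96 h. Those of PrE (6 genes) went from 44.2 to 69.3 at 0 h to 32580 to 43490 at 48 h. The sums of the 6 parietal and 6 visceral endoderm markers were also higher at 48 h (95620 to 141100 and 17130 to 40150) than at 0 h (6240 to 6700 and 5.52 to 15.1). Of single markers, 5 of 6 parietal ones were called higher at 48 h by the test described below. *Vim* was not, and was called lower from 24 to 48 h. Of the visceral markers 4 were tested, and all 4 were called higher (8.48% of all genes were). Mesoderm markers (6 genes) summed to at most 777 and trophoblast markers (6 genes) to at most 733, both at 0 h. Single genes of these lists went both ways. *Hand1*, on both lists, was called higher than at 0 h at 2, 24, 48 and 96 h. *Ascl2* was called lower at 2 h and higher at 24 and 48 h. *T* was called lower from 4 h on and *Tfap2c* at 8, 16 and 24 h. From 24 to 48 h *Cdx2* was called higher. Fibroblast feeder markers (8 genes) summed to at most 237, at 8 h. In whole cultures, fewer cells with a transcript and less of it per cell cannot be told apart.

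Detection was read on the deposited log2 scale, as a mean of at least 5 at 1 time point or more. By this rule 23 of the 49 genes were detected, 16 integrins and 7 cadherins. A mean normalized count of at least 5 was reached by 33 genes and one of at least 10 by 27. Differences were tested where 4 or more samples had a normalized count of 10 or more, which left 27 of the 49 (19 integrins and 8 cadherins). The tested genes outside the 23 were *Itga2b*, *Itga10*, *Itgae* and *Cdh23*. The 22 genes that were not tested were *Itga2*, *Itga11*, *Itgad*, *Itgam*, *Itgax*, *Itgb2*, *Itgb8*, *Cdh7*, *Cdh8*, *Cdh9*, *Cdh10*, *Cdh11*, *Cdh12*, *Cdh13*, *Cdh15*, *Cdh16*, *Cdh17*, *Cdh18*, *Cdh19*, *Cdh20*, *Cdh22* and *Cdh26*. Their highest mean at any time point was 11.1, for *Cdh17*. *Itgb2*, the beta chain that most leukocyte integrins need, did not pass 4 reads in any sample.

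A gene was called higher or lower where limma gave an FDR below 0.1 and a fold change of at least 4 on the scale of log2(normalized count + 1). At 2 h, 1 of the 27 genes was called higher (*Itga7*), against 2.00% of all 15227 genes tested. None was called lower (0.348% of all genes), although 5 were lower at an unadjusted p under 0.05, and limma-voom on the reads also called 0 lower. By the FDR alone 11 were higher and 5 lower at 2 h, where 22.2% and 22.6% of all genes were. At 4 h, 5 genes were higher (*Cdh2*, *Itga3*, *Itga7*, *Itga8* and *Itgb6*), against 2.69% of all genes. None was lower (0.709% of all genes), with 3 at an unadjusted p under 0.05 and 0 by limma-voom. The median log2 fold change of the 27 genes at 4 h was 0.64, or 0.38 with genes at or under 3 reads in 1 group set to their bound, and that of all genes was -0.01.

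At 8 h, *Itga3* and *Itgb6* were higher, 2 of 27 against 3.40% of all genes. At 16 h, 3 were higher (*Itga3*, *Itgb6* and *Cdh5*), against 4.03%. None was called lower at 8 h (1.31% of all genes) or 16 h (2.40%), where 2 and 4 genes were lower at an unadjusted p under 0.05 and limma-voom called 0. Shares of all genes at an unadjusted p under 0.05 were not computed for any comparison. At 24 h, 4 were higher (*Itga3*, *Itgb6*, *Cdh5* and *Cdh6*, against 4.85%) and 1 was lower (*Itga1*, against 4.34%).

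At 48 h, 3 genes were higher (*Cdh5*, *Cdh6* and *Itgb6*) and 4 lower (*Cdh2*, *Itga1*, *Itgal* and *Itgb7*), against 8.48% and 7.09% of all genes. At 96 h, 4 were higher (*Cdh5*, *Cdh6*, *Itgb1* and *Itgb6*) and 8 lower (*Cdh1*, *Cdh2*, *Cdh23*, *Itga1*, *Itga6*, *Itgal*, *Itgb4* and *Itgb7*), against 9.28% and 10.3%. By the FDR alone, 9 were higher and 11 lower at 48 h (36.1% and 37.3% of all genes), while at 96 h 10 were higher and 12 lower (38.0% and 38.5%). The median log2 fold change at 96 h was -0.13 for the 27 genes, with or without the bounds, and -0.03 for all genes. Over all time points, 15 genes were called against 0 h at least once. *Cdh2* was called in both directions.

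**Figure D1:**
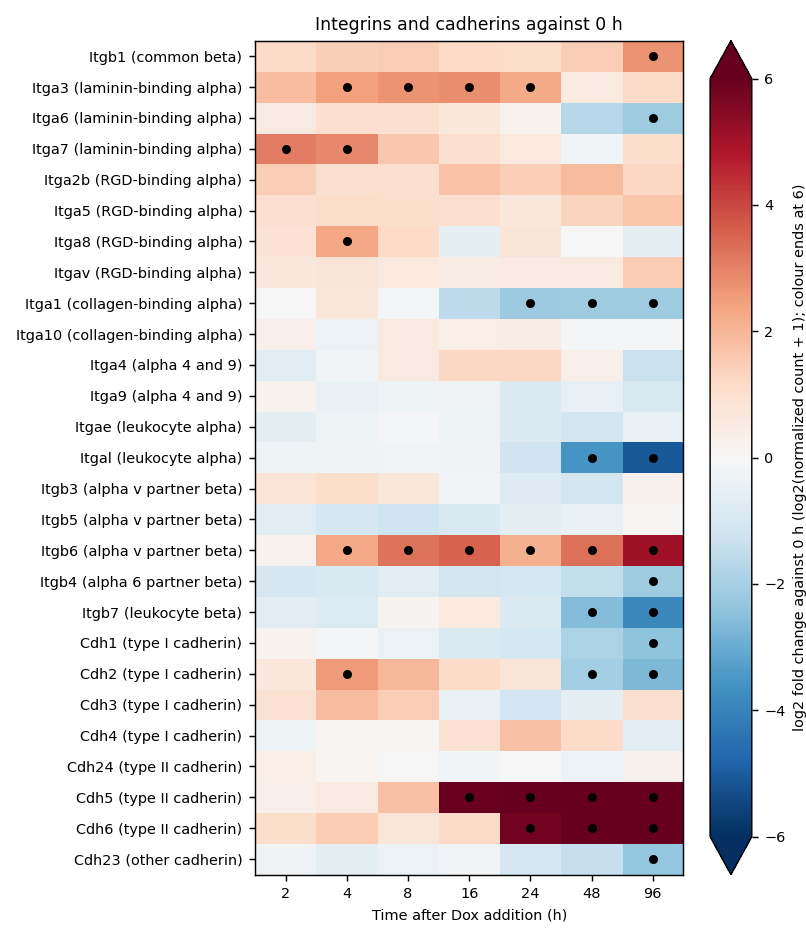
Differences of the 27 tested integrins and cadherins from 0 h. Each cell is the log2 fold change on the scale of log2(normalized count + 1) at 1 time point after Dox addition (columns, h), red for higher and blue for lower than at 0 h, with colours ending at 6 on either side. Dots mark FDR below 0.1 with a fold change of at least 4 by limma, of which there is 1 at 2 h (*Itga7*) and 12 at 96 h. Most dots before 24 h lie on *Itga3*, *Itga7* and *Itgb6*. The deepest red is in *Cdh5* and *Cdh6*.

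Promoters are shown for *Cdh6*, first called higher at 24 h, *Itgb1*, first called at 96 h, and *Itga3*, first called at 4 h. By the FDR alone *Itgb1* was already higher at 2 h. The sequences are from RefSeq on GRCm38.p6 and run to the last base before the annotated start, at chr15:13173676-13173925 (minus strand), chr8:128685404-128685653 (plus strand) and chr11:95076802-95076964 (minus strand, without the bases inside the annotated gene). They are written 5′ to 3′, and capitals mark CAGGTG, the letters that the SNAI and ZEB repressors of *Cdh1* are known to bind.
Cdh6: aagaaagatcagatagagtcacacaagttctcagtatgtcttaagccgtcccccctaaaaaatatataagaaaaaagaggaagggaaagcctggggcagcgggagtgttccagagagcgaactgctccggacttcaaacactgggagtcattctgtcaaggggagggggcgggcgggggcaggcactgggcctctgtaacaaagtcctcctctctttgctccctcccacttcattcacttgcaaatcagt
Itgb1: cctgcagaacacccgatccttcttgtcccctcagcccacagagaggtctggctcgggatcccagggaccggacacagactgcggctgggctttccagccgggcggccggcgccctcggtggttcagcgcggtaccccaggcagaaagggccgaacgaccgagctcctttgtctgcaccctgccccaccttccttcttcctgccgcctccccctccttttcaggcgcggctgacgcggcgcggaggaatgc
Itga3: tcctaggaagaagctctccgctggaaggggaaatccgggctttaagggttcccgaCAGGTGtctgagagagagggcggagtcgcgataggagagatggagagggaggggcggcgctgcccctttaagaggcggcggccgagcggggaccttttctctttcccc

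RefSeq promoters of 250 bases were matched for 31 of the 49 genes (35 promoters), 16 of them tested. *Cdh1*, *Cdh5*, *Itga6* and *Itga7* were among the genes without one, so their promoters were not searched for either motif. CAGGTG on either strand (CAGGTG or CACCTG) stood in 8 of the 35, and in 17.2% of 32851 promoters of this length in the mouse. The genes were *Cdh7*, *Itga3*, *Itga9*, *Itga11*, *Itgb5*, *Itgb6* and *Itgb8*. In the printed *Itga3* sequence it begins 108 bases before the annotated start. The GATA letters AGATAA or TGATAA on either strand (also TTATCT and TTATCA) stood in 2 of the 35, 1 promoter each of *Cdh7* and *Itgax*, and in 16.6% of all promoters. A match is a run of letters and no measure of binding, and a lack of one says only that these letters are not in this window.

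Among the type I cadherins, *Cdh1* encodes E-cadherin, the main cadherin of ES cells (chromosome 8, 106603351 to 106670246 on GRCm38). Its normalized count at 0 h was 4016, 3970, 5586 and 5808 in replicates 1 to 4. At 48 h the samples gave 1413, 1445, 1136 and 1118, and at 96 h 906, 916, 894 and 871. All samples at 48 and 96 h lay below all samples at 0 h, and at 0 h replicates 3 and 4 were above replicates 1 and 2. At 96 h, *Cdh1* had fallen to 18.5% of its mean at 0 h (log2 fold change -2.41, SE 0.15, adjusted p = 2.32e-15 by limma). The mean was highest at 2 h, and the descent from there was gradual. Over the time points from 2 to 24 h the means were 5529, 4539, 3762, 2593 and 2304, and the mean of 48 h stood at 1278 with a log2 fold change of -1.91 that missed the 4-fold limit. Within the sets the 48 h value was -1.48 in replicates 1 and 2 and -2.34 in replicates 3 and 4, and without replicate 1 (-2.04) or replicate 2 (-2.06) it was past the limit.

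*Cdh2* encodes N-cadherin, which many cells carry when they leave an epithelium. Its normalized count at 0 h was 58.0, 57.1, 26.6 and 15.1 in replicates 1 to 4. At 4 h it was 248, 259, 164 and 159, above every sample at 0 h, and at 48 h it was 7.54, 9.42, 6.16 and 7.22, below every sample at 0 h. *Cdh2* thus rose 5.30 times in its mean at 4 h (log2 fold change 2.53, SE 0.38, adjusted p = 2.63e-06) and fell by 2.05 on the log2 scale at 48 h (SE 0.38, adjusted p = 1.92e-05), with a mean of 5.29 at 96 h (adjusted p = 1.83e-07). The 48 h call was lost without replicate 1 (-1.80) or replicate 2 (-1.90), in replicates 3 and 4 alone (-1.46), with a pseudocount of 5 (-1.66) and on the deposited values without inversion (-1.66). At 8 h the log2 fold change of 1.99 lay just under the limit and was past it without replicate 1 (2.12), replicate 2 (2.12) or replicate 3 (2.04).

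*Cdh3* (P-cadherin) and *Cdh4* (R-cadherin) passed the FDR at several time points but never a fold of 4. *Cdh3* went from a mean of 28.7 ± 14.3 (SD, n = 4) at 0 h to 98.4 ± 12.4 at 4 h, and was at 11.8 ± 4.65 by 24 h, with log2 fold changes of 1.86 and -1.15. *Cdh4* went from 43.7 ± 6.69 at 0 h to 149 ± 23.5 at 24 h, then to 28.7 ± 11.4 by 96 h, and its log2 fold change at 24 h was 1.74. The mean was thus highest at 4 h for *Cdh2* and *Cdh3* and at 24 h for *Cdh4*, while *Cdh15* (M-cadherin) had at most 12 reads in a sample.

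Among the type II cadherins, *Cdh6* encodes K-cadherin, known from the developing kidney and neural crest (chromosome 15, 13028701 to 13173675). It had 0 to 5 reads in the samples at 0 h and a mean normalized count of 2.21 there. The mean stayed at or below 7.49 up to 16 h. At 24 h the samples gave 110, 113, 193 and 204, at 48 h 775, 789.5, 1104 and 1153, and at 96 h 1595, 1500, 1926 and 1614. Every sample from 24 h on was above every sample at 0 h. *Cdh6* rose at 24 h (log2 fold change 5.77, SE 0.41, adjusted p = 3.70e-13), and stood 9.23 above 0 h at 96 h (adjusted p = 1.09e-18). It also rose from 16 to 24 h (log2 fold change 4.60, adjusted p = 1.40e-09) and from 24 to 48 h (2.65, adjusted p = 3.02e-06).

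*Cdh5* encodes VE-cadherin, the cadherin of endothelial junctions (chromosome 8, 104101625 to 104144511). At 0 h it had 1 read in replicate 2 and 0 in the other samples, and at 8 h the samples had 3, 0, 5 and 16 reads. At 16 h the normalized count was 31.3, 60.3, 106 and 112, and at 96 h it was 334, 321, 457 and 406. All samples from 16 h on were above all samples at 0 h, and replicates 3 and 4 were above replicates 1 and 2 at 16, 24, 48 and 96 h. Against a floor of 3 reads per sample at 0 h, *Cdh5* was at least 21.7-fold higher at 16 h, at least 26.7-fold at 48 h and at least 106-fold at 96 h, with adjusted p values of 2.06e-10, 1.78e-11 and 1.38e-14. The means at 24 h (96.2 ± 49.1) and 48 h (95.1 ± 46.9) overlapped, and a second rise followed from 48 to 96 h (log2 fold change 2.11, adjusted p = 1.93e-03). That second rise was under the fold limit in replicates 3 and 4 alone (1.66), and without replicate 1 (1.99) or replicate 2 (1.94).

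The other 5 endothelial markers on the list summed to between 622 and 1063 before Dox, to between 252 and 351 at 48 h, and to between 482 and 694 by 96 h. *Pecam1*, which ES cells also carry, had a mean of 730 at 0 h and 70.4 at 96 h, *Kdr* had 34.7 and 276, *Tek* 70.2 and 235, and *Emcn* had no read in any sample. *Tie1*, an endothelial receptor, was called higher at 4, 8, 16 and 24 h, so at 16 and 24 h it was higher together with *Cdh5*. Its mean was 10.9 ± 12.2 at 0 h, 43.9 ± 37.0 at 16 h and 0.793 ± 1.01 at 96 h (log2 fold change 2.43 at 16 h, adjusted p = 0.0363). *Kdr* was called lower at 16 h and higher at 96 h, and *Pecam1* lower at 48 and 96 h. Between neighbouring time points, *Kdr* was called higher from 24 to 48 h. From 48 to 96 h *Tek* was called higher, as *Cdh5* was, and *Tie1* lower. The part of endothelial cells in the *Cdh5* values was not tested. *Cdh24*, a widely expressed type II cadherin, was never called and stayed between 67.4 and 114 in its means.

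**Figure D2:**
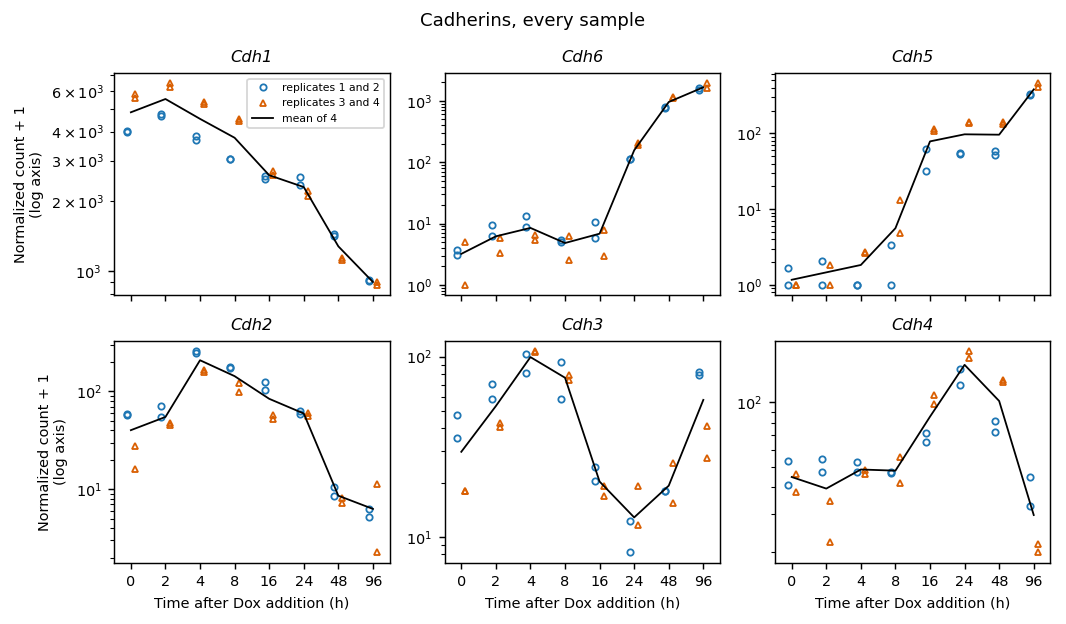
Normalized counts plus 1 (log axis) of 6 cadherins in every sample against time after Dox addition (h, evenly spaced). Circles are replicates 1 and 2, triangles are replicates 3 and 4, and the line joins the means of 4. *Cdh1* goes down from a mean of 4845 to 897, *Cdh6* leaves its low level at 24 h and *Cdh5* at 16 h, and *Cdh2* peaks at 4 h.

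Levels of different genes were compared as normalized count per kilobase of annotated exons. On this scale *Cdh1* made up 95.7% ± 0.891 (SD, n = 4) of the cadherin sum at 0 h and 88.9% ± 0.907 at 16 h. Its share was 62.2% ± 8.85 at 48 h and 37.9% ± 2.64 at 96 h. *Cdh6* held 23.5% ± 4.84 at 48 h and 35.3% ± 1.67 at 96 h, and *Cdh5* 17.3% ± 2.04 at 96 h. At 96 h *Cdh1* (196 ± 4.27 per kilobase) and *Cdh6* (184 ± 20.5) overlapped, with *Cdh1* the higher in 3 of 4 samples, whereas *Cdh5* (90.3 ± 15.2) lay below both. With the longest transcript as the length, a choice made after seeing the data, the shares of *Cdh1* and *Cdh6* at 96 h were 36.8% and 36.8%. The summed level of all cadherins was 1105 ± 216 per kilobase at 0 h, 450 ± 6.15 at 48 h and 519 ± 32.5 at 96 h.

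Among the integrins, *Itgb1* encodes the beta 1 chain, which pairs with most alpha chains here (chromosome 8, 128685654 to 128733200). Its normalized count at 0 h was 1315, 1198, 973 and 1029. At 2 h it was 2958, 2985, 2128 and 2121, and at 96 h 7026, 7257, 7594 and 7648. The samples at every later time point lay above those at 0 h. *Itgb1* rose 6.54 times in its mean by 96 h (log2 fold change 2.72, SE 0.10, adjusted p = 1.33e-20). From 2 to 48 h the means held between 2433 and 3144, with log2 fold changes of 1.11 to 1.49 that passed the FDR and not the fold limit (at 2 h 1.16, adjusted p = 9.95e-11). Among beta chains the share of *Itgb1* per kilobase went from 59.6% ± 8.83 at 0 h to 83.0% ± 6.36 at 2 h, and reached 92.3% ± 0.168 by 96 h.

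The alpha chains that bind laminin (*Itga3*, *Itga6* and *Itga7*) were each highest within the first 16 h. *Itga3* (chromosome 11, 95044474 to 95076801) is the gene whose printed promoter holds a CAGGTG, and it had a normalized count of 206, 234, 450 and 468 at 0 h. At 4 h it was 1435, 1497, 2003 and 2121, and at 16 h 1827, 1960, 2665 and 2593. Replicates 3 and 4 were above replicates 1 and 2 at each of these times, and no sample at 4 or 16 h came down to the level at 0 h. *Itga3* was higher at 4 h (log2 fold change 2.45, SE 0.22, adjusted p = 2.87e-10), 8 h (2.67), 16 h (2.81, adjusted p = 8.11e-12) and 24 h (2.26). At 48 h its mean was 463 ± 68.0 and its samples overlapped those at 0 h (log2 fold change 0.53). At 96 h the mean was 716 ± 183, with every sample above those at 0 h (log2 fold change 1.14, adjusted p = 3.88e-05) and a difference from 48 h of 0.60 (adjusted p = 0.0260), both under the fold limit. At 2 h it missed the limit with 1.85, but passed it without replicate 3 (2.03) or replicate 4 (2.05). The 24 h call was lost in replicates 3 and 4 alone (1.92).

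*Itga7*, the main laminin receptor chain of muscle, was the only gene of the 27 called at 2 h. Its normalized count was 4.14, 8.83, 16.9 and 13.2 at 0 h, and 91.4, 74.7, 90.3 and 103 at 2 h. The groups were far apart, with a mean 8.33 times higher at 2 h (log2 fold change 3.08, SE 0.33, adjusted p = 9.83e-09). At 4 h the log2 fold change was 2.89 (adjusted p = 2.72e-08), at 8 h it was 1.64 and under the fold limit, and at 48 h the mean of 8.46 lay within the range at 0 h. At 96 h the mean was 22.4 ± 8.10 (log2 fold change 1.06, adjusted p = 0.00516, under the fold limit), and the sets parted, with 2.05 in replicates 1 and 2 and 0.07 in replicates 3 and 4. From 48 to 96 h the log2 fold change was 1.24 (adjusted p = 0.00258), also under the limit.

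*Itga6* pairs with beta 1 or beta 4 and is a known surface marker of ES cells. It had a normalized count of 1464, 1743, 1942 and 2025 at 0 h. At 4 h the samples gave 2804, 2634, 4643 and 4561, and at 96 h 426, 445, 385 and 363. Both sets were above 0 h at 4 h and below it at 96 h, without overlap. The difference at 4 h was a log2 fold change of 0.99 (adjusted p = 0.00118), under the fold limit, and at 96 h *Itga6* had fallen by 2.14 on the log2 scale (SE 0.24, adjusted p = 2.38e-09). The 96 h call was lost in replicates 1 and 2 alone (-1.87). At 48 h the sets parted, with 819 and 893 in replicates 1 and 2 and 323 and 353 in replicates 3 and 4 (log2 fold change -1.73, or -0.90 and -2.55 within the sets), and without replicate 1 the 48 h value passed the limit (-2.02). *Itgb4*, the beta chain that joins *Itga6* at hemidesmosomes, had samples of 48.3, 57.1, 87.9 and 111 at 0 h and 13.8, 14.7, 21.3 and 14.2 at 96 h. It was lower in every sample at 96 h (log2 fold change -2.13, SE 0.37, adjusted p = 8.93e-06), a call lost without replicate 4 (-1.87), in replicates 1 and 2 alone (-1.81) and with a pseudocount of 5 (-1.89).

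**Figure D3:**
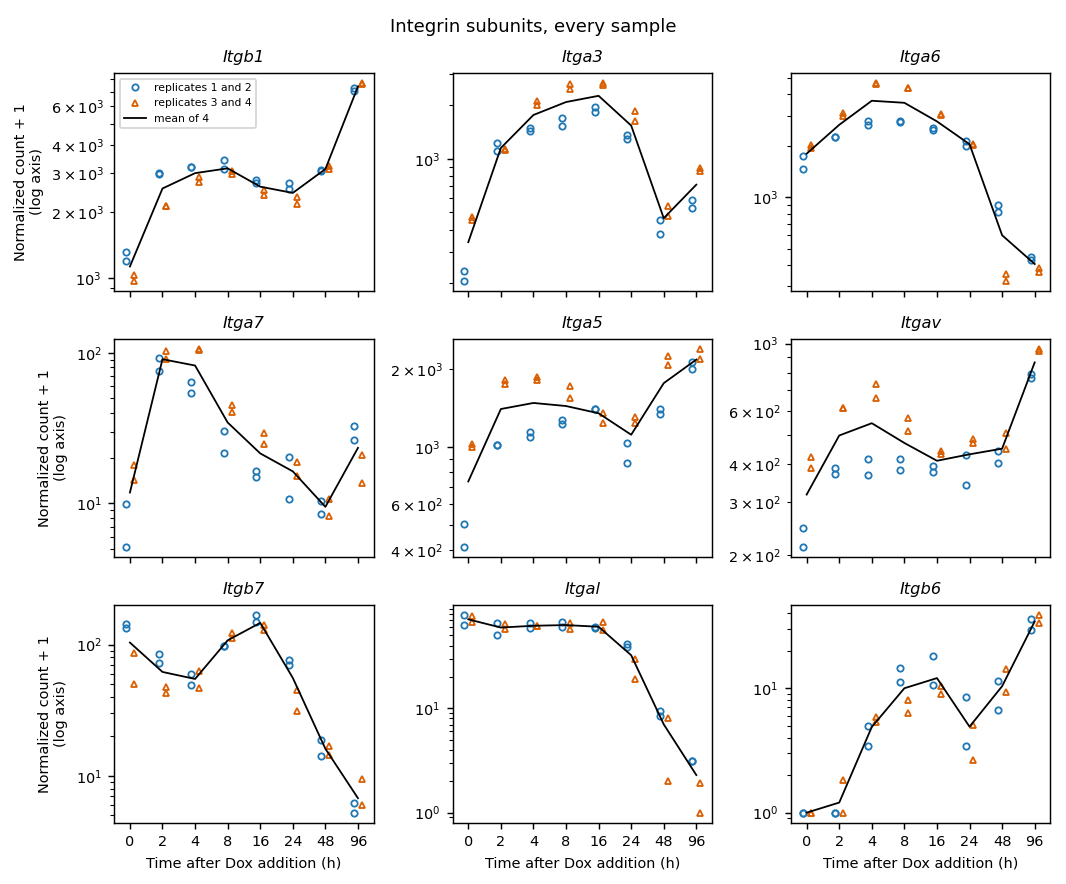
Normalized counts plus 1 (log axis) of 9 integrin subunits in every sample against time after Dox addition (h, evenly spaced). Circles are replicates 1 and 2, triangles replicates 3 and 4, and the line joins the means of 4. *Itga3* is highest at 16 h and *Itga7* at 2 h, *Itgb1* goes from a mean of 1129 to 7381 at 96 h, and *Itgb7* and *Itgal* go down after 16 h.

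The alpha chains that bind RGD proteins include *Itga5*, the fibronectin receptor chain, and *Itgav*, the vitronectin receptor chain. *Itga5* had a normalized count of 410, 503, 996 and 1026 at 0 h and of 2121, 2005, 2388 and 2183 at 96 h. Its samples at 96 h were all above those at 0 h, but at 0 h replicates 3 and 4 were far above replicates 1 and 2, and the log2 fold change of 1.68 (SE 0.24, adjusted p = 3.58e-07) stayed under the fold limit. Within the sets it was 2.18 and 1.18. *Itgav* likewise passed the FDR at 96 h (316 ± 102 at 0 h and 865 ± 99.5 at 96 h, SE of the log2 fold change 0.21, adjusted p = 1.59e-07) and not the fold limit. *Itga8*, which binds nephronectin, rose briefly, from 6.90, 10.9, 7.25 and 1.89 at 0 h to 37.6, 46.0, 28.1 and 26.9 at 4 h (log2 fold change 2.34, adjusted p = 2.07e-05), a call lost with a pseudocount of 5 (1.79). Its mean was 15.2 at 8 h and 4.42 at 16 h. *Itga2b*, the platelet chain, had means between 3.54 at 0 h and 16.1 at 48 h and was never called (log2 fold change 1.90 at 48 h).

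Per kilobase of exon, the leading alpha chain changed with time. *Itga6* held 43.6% ± 6.02 of the alpha sum at 0 h, 29.3% ± 0.422 at 16 h and 6.42% ± 1.15 at 96 h. *Itga3* held 12.3% ± 2.00, 37.6% ± 3.49 and 17.5% ± 2.98 at these times, and *Itga5* 30.6% ± 6.03, 26.4% ± 3.81 and 62.4% ± 1.92. At 24 h *Itga3* (269 ± 45.6 per kilobase) was above *Itga6* (226 ± 6.204) and *Itga5* (226 ± 40.3) in 4 of 4 samples, while *Itga6* was above *Itga5* in 2 of 4. Lengths of the longest transcript moved the share of *Itga6* at 0 h to 57.5%, that of *Itga3* at 16 h to 30.5% and that of *Itga5* at 96 h to 56.2%. The summed level of the alpha chains for 0, 8 and 96 h was 468 ± 123, 1131 ± 254 and 707 ± 66.2 per kilobase, and that of the beta chains was 465 ± 13.7, 881 ± 35.0 and 1959 ± 74.6.

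**Figure D4:**
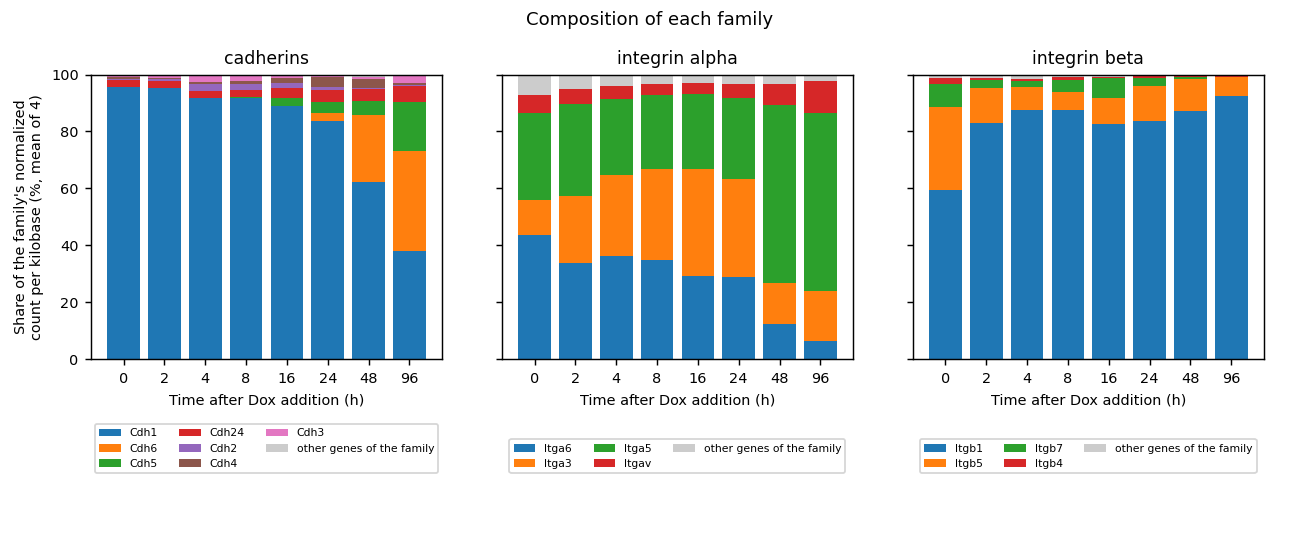
Share of each gene in the summed normalized count per kilobase of its family (%, means of 4 samples) at each time after Dox addition (h), for cadherins, integrin alpha chains and integrin beta chains. *Cdh1* goes from 95.7% at 0 h to 37.9% at 96 h, *Itga5* from 30.6% to 62.4% and *Itgb1* from 59.6% to 92.3%.

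Of the beta chains that pair with alpha v, *Itgb6* had 0 reads in all samples at 0 h. Its reads in replicates 1 to 4 were 4, 1, 6 and 5 at 4 h and then 13, 15, 9 and 7 at 8 h. They were 2, 12, 2 and 2 at 24 h before reaching 33, 27, 30 and 34 by 96 h. Every sample from 4 h on had at least 1 read. Against a floor of 3 reads per sample at 0 h, *Itgb6* was at least 9.34-fold higher at 96 h (adjusted p = 2.54e-14), whereas the bounds from 4 to 48 h were 1.09 to 3.10-fold, so those calls at 4, 8, 16, 24 and 48 h rest on the pseudocount of 1 and were lost with a pseudocount of 5. The 24 h call was also lost without replicate 2 (1.83). *Itgb5* was never called and was lowest at 8 h (200 ± 40.3, against 481 ± 182 at 0 h and 480 ± 19.8 at 96 h), with a log2 fold change of -1.20 at 8 h. *Itgb3* was never called either, and its sets went in opposite directions at 48 h, with log2 fold changes of 0.98 in replicates 1 and 2 and -3.23 in replicates 3 and 4.

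Of the chains known best from leukocytes, *Itgal* and *Itgb7* were called lower from 48 h on, and the others were low. *Itgal*, the alpha chain of LFA-1, had a normalized count of 62.1, 77.5, 66.1 and 75.5 at 0 h, and its mean stayed between 58.5 and 61.9 from 2 to 16 h. At 48 h the samples gave 8.48, 7.54, 7.04 and 1.03, and at 96 h no sample passed 2 reads. *Itgal* fell by 3.56 on the log2 scale at 48 h (SE 0.34, adjusted p = 1.55e-10) and was at least 21.7-fold lower at 96 h against a floor of 3 reads per sample there. *Itgb7*, the partner of alpha 4 and alpha E, had 132, 143, 85.4 and 49.1 at 0 h and 148, 167, 128 and 139 at 16 h. By the FDR alone *Itgb7* was lower at 2, 4 and 24 h and higher at 16 h (log2 fold change 0.61 at 16 h), each under the fold limit. It then dropped below every sample at 0 h, to 17.9, 13.2, 15.8 and 13.4 at 48 h (log2 fold change -2.58, SE 0.28, adjusted p = 1.60e-09) and 4.24, 5.26, 5.02 and 8.51 at 96 h (-3.86). The 6 leukocyte markers summed to between 1065 and 2273 at all time points, almost wholly *Laptm5*, while *Ptprc* had a mean of 0.743 at 0 h and no read at 16, 24 and 48 h, and *Tyrobp* no read up to 16 h. The part of leukocytes in these values was not tested.

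*Itga4*, *Itga9* and *Itgae* were not called at any time point. *Itga4* had means of 23.3 ± 7.003 at 0 h, 55.7 ± 15.3 at 16 h and 8.81 ± 3.27 at 96 h (log2 fold changes 1.23 and -1.31), and *Cerkl* on the opposite strand shares 8.04% of its exon bases. *Itga9* had means between 26.2 and 60.9, and *Itgae* between 8.57 and 20.5. Of the collagen-binding chains, *Itga1* had 31.7, 19.7, 12.9 and 15.1 at 0 h, and 1.20, 5.63, 4.06 and 4.08 at 24 h. These groups did not overlap (log2 fold change -2.17, SE 0.47, adjusted p = 0.000279), and *Itga1* was also lower at 48 h (-2.14) and 96 h (-2.13). All 3 calls were lost with a pseudocount of 5 (-1.48, -1.47 and -1.36) and in replicates 3 and 4 alone (-1.56, -1.80 and -0.99). They were lost without replicate 1 at 24 h (-1.59) and 96 h (-1.16), and without replicate 2 at 48 h (-1.90). *Itga10* was not called, with means of 14.7 to 23.1, and 33.5% of its exon bases are shared with *Gm42957*. *Cdh23*, a cadherin of hair cell tip links, had 12.4, 6.11, 5.64 and 9.44 at 0 h and 4.24, 0, 0 and 0.946 at 96 h. It was called lower there (log2 fold change -2.34, adjusted p = 0.000147), but not with a pseudocount of 5 (-1.11).

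Between neighbouring time points few of the 27 genes changed 4-fold. From 2 to 4 h, *Itgb6* was called higher (0.788% of all genes were called in either direction), with at most 1 read at 2 h and a fold of at least 1.37. That call was lost without replicate 1 (1.95) or replicate 3 (1.88). From 4 to 8 h none was called (0.814% of all genes), with 5 genes higher and 2 lower at an unadjusted p under 0.05 and 0 called by limma-voom. From 8 to 16 h *Cdh5* was called (1.04%, log2 fold change 4.19, adjusted p = 1.75e-06) and from 16 to 24 h *Cdh6* (1.25%). From 24 to 48 h *Cdh6* was higher and *Cdh2* (log2 fold change -2.80, adjusted p = 3.49e-07) and *Itgal* (-2.36, adjusted p = 1.21e-06) were lower, 3 of 27 against 3.91% of all genes. The *Itgal* step was under the limit without replicate 4 (-1.86) and with a pseudocount of 5 (-1.74), and *Itga6* passed the limit without replicate 1 (-2.14) or replicate 2 (-2.15). From 48 to 96 h *Cdh5* was higher, 1 of 27 against 3.70% of all genes.

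Genes that work with the integrins and cadherins were counted by the same test, over lists set by function. Of 28 integrin ligands, 21 were tested. At 48 h 7 were higher and 5 lower, and at 96 h 8 and 5, where the shares of all genes were 8.48% and 7.09% at 48 h and 9.28% and 10.3% at 96 h. *Col4a1*, a chain of basement membrane collagen, had the largest rise among those called at 48 h (46.0 ± 11.3 at 0 h and 56410 ± 20490 at 48 h, log2 fold change 10.18, adjusted p = 6.60e-28). *Lama3*, a laminin alpha chain, had the largest fall (log2 fold change -5.25, adjusted p = 5.15e-17). The other ligands called higher at 48 h were *Col4a2*, *Lama1*, *Lamb1*, *Lamc1*, *Thbs1* and *Vcam1*, and those called lower included *Fn1*, *Icam1* and *Lama4*.

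Of 25 adaptors that join integrins to actin, 23 were tested, with 2 higher and 1 lower at 48 h (8.48% and 7.09% of all genes). At 96 h 4 were called, each higher, where 9.28% and 10.3% of all genes were called higher and lower. The 48 h counts lie near those shares. *Parva*, the alpha-parvin of the ILK complex, had the largest rise at 48 h (log2 fold change 5.25, adjusted p = 2.55e-13), and *Lims2* was the 1 gene called lower (-2.15). Of 15 catenins and nectins, 13 were tested. The 1 call at 48 h was a lower level of *Ctnnd2* (log2 fold change -3.35, adjusted p = 1.32e-09), where 8.48% and 7.09% of all genes were called higher and lower. At 96 h 1 was higher (*Ctnna2*) and 1 lower (*Ctnnd2*), against 9.28% and 10.3% of all genes. *Ctnnb1* and *Ctnna1*, the beta and alpha catenins that bind E-cadherin, had log2 fold changes of 0.31 and 0.60 at 48 h and were not called. The *Ctnnd1* entry used here is listed at 0 in all samples, and a second gene of the same name shares 94.7% of its exon bases in the annotation. The values of that second gene were not looked up, so the 0 does not show a lack of *Ctnnd1* transcripts. *Ilk* had at most 10 reads in a sample, and *Taf10* on the opposite strand shares 76.8% of its exon bases. Of 6 repressors of *Cdh1*, 3 were higher and 1 lower at 48 h, against 8.48% and 7.09% of all genes. *Snai1* had the largest rise there (16.0 ± 4.54 at 0 h and 234 ± 28.8 at 48 h, log2 fold change 3.82, adjusted p = 1.52e-12) and *Zeb1* the fall (-2.52, adjusted p = 4.98e-12), and *Twist1* and *Zeb2* were also higher. At 96 h 2 repressors were higher (*Snai1* and *Zeb2*) and 0 lower, against 9.28% and 10.3% of all genes, with 2 lower by the FDR alone. Before 48 h, *Twist1* was called higher at 2, 4, 8 and 16 h and *Snai1* at 16 and 24 h.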

How the data were processed

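The deposited table held log2 values per gene. For it, per the labels and the study's methods, the authors used cutadapt 2.7 to trim single-end reads of a stranded polyA library and HISAT2 2.1.0 to place them on GRCm38.p6, and counted them over GENCODE m18 genes with featureCounts (Subread 1.6.4). The log2 values the authors deposited came from the variance stabilising transformation of DESeq2, which pulls low values together. The strand setting of the counting is not given in the sources used here. The transformation was inverted here to normalized counts, and 100% of values gave whole reads within a tolerance of 0.001.

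Genes for which 4 or more samples had a normalized count of 10 or more (15227 of 54233) were fitted with limma 3.58.1 in R 4.3.3 as log2(normalized count + 1), with all 32 samples in 1 fit and Benjamini-Hochberg adjustment per comparison. The pseudocount understates changes of low genes with reads in both groups. Where 1 group has 0 reads, as for *Itgb6* at 0 h, the size of the change rests on the pseudocount. Calls needed an FDR below 0.1 and a 4-fold change. Every later time point was set against 0 h and against the time point before it. Every one of the 49 genes is accounted for, and the rule for the other lists was to name the largest called rise and fall at 48 h. The other list genes (further called members, *Ctnnb1*, *Ctnna1*, *Ctnnd1*, *Ilk* and the endothelial and leukocyte markers) were named after their values were seen. Of the integrin ligands, 1 is not reported here by name. The genes and lists were chosen with earlier results of these data known. Exon lengths and overlaps came from GENCODE M21 on GRCm38. Tests were also run on simulated data. Alternatives were other pseudocounts, filters and scalings, limma-voom on the reads, the replicate sets, single replicates left out and a replicate block. Scripts ran in Python 3.11.15 with matplotlib 3.10.9, scipy 1.17.1, pandas 2.3.3 and numpy 2.4.6. Reads without molecular identifiers are not independent molecules, so floors of 3 reads cover counting error only.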

Additional observations from a re-analysis of the deposited data

Results flagged for a closer look

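In 5 of the 120 groups of 4 replicates tested, 1 sample lay apart from the others by Dixon's criterion, which chance alone gives in about 1 group in 20. *Itga8* at 96 h was 6.28 normalized counts in replicate 3 (5 reads), with the others between 2.84 and 3.18. *Itgb4* at 96 h was 21.3 in replicate 3, with the others between 13.8 and 14.7. *Itga1* at 16 h was 9.49 in replicate 4, with the others between 4.35 and 4.89. For *Itgb6* at 2 h the value was 0.821 in replicate 4, and for *Cdh5* at 0 h it was 0.679 in replicate 2, each of them 1 read where the other 3 samples had 0.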

How the results depend on the processing

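For single genes, alternatives were tallied only for the 15 genes called at least once, in comparisons with an FDR below 0.1. Of these 1942 values, 1870 kept their direction and side of the threshold, 46 lost a call, 26 gained one and 0 reversed. This choice left out weak differences, so few reversals could occur. *Itgb3* at 48 h, whose sets went in opposite directions, is not among these values. Without the fold limit, genes higher at 2, 4, 8, 16, 24, 48 and 96 h were 11, 12, 12, 14, 11, 9 and 10. Genes lower at 2, 4, 8, 16, 24 and 48 h were then 5, 3, 2, 4, 10 and 11, and those changed from the time point before at 4, 8, 16, 24, 48 and 96 h were 6, 5, 8, 9, 16 and 16. Of all genes, 22.2%, 36.1% and 38.0% were then higher at 2, 48 and 96 h, and 22.6% and 37.3% were lower at 2 and 48 h. Shares for the other comparisons without the fold limit were not computed, so those counts are not set against all genes. A pseudocount of 5 gave 3 and 1 higher at 4 and 8 h, with 0, 2 and 5 lower at 24, 48 and 96 h, and 0 changed from 2 to 4 h. A pseudocount of 0.5 gave 4 higher at 8 h. The deposited values without inversion gave 3 higher at 4 h, with 0, 2 and 5 lower at 24, 48 and 96 h, and 0 changed from 2 to 4 h. A mean of at least 50 gave 0 higher at 2 h, 2 at 4 h and 1 at 8 h, with 0, 2 and 4 lower at 24, 48 and 96 h, and 0 changed from 2 to 4 h. No filter gave 3 higher at 2 h and 2 changed from 2 to 4 h. Replicates 1 and 2 alone gave 2 higher at 2 h, 1 lower at 16 h and 2 at 24 h, and 2 changed at 4, 16, 24 and 96 h from the time point before. Replicates 3 and 4 alone gave 5 higher at 8 h, 2 at 24 h and 0 lower at 24 h, and 2 changed from 8 to 16 h. Leaving out 1 replicate at a time gave 1 to 2 higher at 2 h, 5 to 6 at 4 h, 2 to 4 at 8 h, 3 to 3 at 16 h, 3 to 4 at 24 h, 3 to 4 at 48 h and 4 to 4 at 96 h. Lower genes were 0 to 0 from 2 to 16 h, 0 to 1 at 24 h, 3 to 5 at 48 h and 7 to 8 at 96 h, and changes from the time point before were 0 to 1 at 4 h, 0 to 0 at 8 h, 1 to 2 at 16 h, 1 to 1 at 24 h, 2 to 4 at 48 h and 1 to 2 at 96 h. *Cdh5* at 8 h passed the limit without replicate 2 (2.58). The cause of these changes was not tested. With the replicate number as a block, 4 genes were higher and 8 lower at 96 h, as without it. Same-numbered samples did not deviate together more than others of their set (mean r 0.196 and 0.196), and 15 of 32 samples correlated best with their own number. Samples of different sets had a mean r of -0.196, with 0 of 224 pairs over 0.1. Deviations were taken from the mean of each time point, which ties this negative value to the positive ones within the sets, so it adds nothing to them. Within a set, 75 and 76 of 112 pairs were over 0.1. Deviations were thus shared within a set across time points, and the main fit had no term for the set. With the mean of each set in place of its samples, 4 genes were higher and 8 lower at 96 h. Scaling by TMM changed size factors by a ratio of 0.964 to 1.04. Depth limits genes under about 10 normalized counts.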

Other observations

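Some genes too low for the test had more reads at certain times, which were picked after their values were seen. *Cdh17*, the liver and intestine cadherin, had 0 reads in every sample at 0, 48 and 96 h, and 11, 5, 16 and 10 reads in replicates 1 to 4 at 4 h. *Itgax*, a leukocyte alpha chain, had 0 reads at 0 h and from 24 h on, and 5, 10, 6 and 8 reads at 2 h. *Itgam*, another leukocyte alpha chain, had 3, 0, 0 and 3 reads at 0 h and 5, 16, 6 and 19 at 2 h, and *Gm49368* shares 68.7% of its exon bases. *Cdh15*, M-cadherin, had 0 reads at 0 h and 7, 3, 11 and 7 at 48 h. None of these differences was tested.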
